A study of Mus musculus with 15 samples.

Results

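Transcripts of 7 podocyte genes, Nphs1, Podxl, Magi2, Wt1, Ptpro, Synpo and Cdkn1c, were followed in whole kidney and lung RNA of injured mice. They were picked by symbol from a deposited table of 56748 genes, and each symbol matched 1 row. Podocytes are the epithelial cells that cover the capillaries of the kidney glomerulus. Their interlocking foot processes are bridged by the slit diaphragm, a protein sheet that holds back plasma proteins, and loss or flattening of foot processes is a hallmark of proteinuric kidney disease.

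The genes serve different parts of this cell. Nphs1 encodes nephrin, the main adhesion protein of the slit diaphragm, and Magi2 a scaffold protein beneath it. Podxl encodes podocalyxin, a heavily charged sialomucin that coats the foot process surface. Ptpro encodes a receptor tyrosine phosphatase of the podocyte membrane, also called GLEPP1, and Synpo encodes synaptopodin, an actin-binding protein of foot processes. Wt1 is the zinc-finger transcription factor that maintains the podocyte program, and Cdkn1c encodes p57, a cell cycle inhibitor of mature podocytes. Several of them are known outside podocytes as well, with Podxl in vascular endothelium and Wt1 in mesothelium.

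The study asked how a leptin-neutralizing antibody, LepAb, alters organ fibrosis after injury. All 15 libraries came from male C57Bl/6 mice of genotype WT, 3 libraries in each of 5 groups, and all carry the same batch label. Kidney mice were 10 to 12 weeks old and were euthanized on day 28. The WTK group received vehicle, the IgGK group was given folic acid (200 mg/kg) and then control IgG, and the LepK group was given folic acid and then LepAb at 10 mg/kg. Lung mice were 12 weeks old, received bleomycin at 1.5 units/kg and then IgG (IgGL) or LepAb at 10 mg/kg (LepL), and were euthanized on day 14. No vehicle-treated lung library was analysed here. The labels name no antibody for WTK, while the study's methods describe antibody or control IgG after vehicle as well as after folic acid, so whether the WTK mice had IgG is not settled here. If they had none, folic acid and IgG cannot be told apart in IgGK against WTK. Organ, agent and day separate kidney from lung together.

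Total counts ran from 25913969 to 38924788 per library. Levels are given as counts scaled to the library total and corrected with edgeR's TMM factors (normalized CPM), with kidney and lung scaled apart. The TMM factors were 0.844 to 0.858 in WTK, 1.14 to 1.18 in IgGK and 0.970 to 1.05 in LepK, so the choice of scaling bears on each kidney comparison. The tissue labels held, since the summed level of 8 lung epithelial markers was 2.76 to 10.1 normalized CPM in the kidney libraries and 16606 to 48018 in the lung libraries. The summed level of 10 proximal tubule markers was 12405 to 52312 in kidney and 33.8 to 163 in lung. A library was taken as 1 mouse. The labels number the replicates without naming animals, so the p-values measure the spread between these libraries.

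Nephrin RNA was present in kidney and nearly absent in lung. Nphs1 was counted 263 to 518 times in each kidney library. In lung, Nphs1 was counted 0, 0 and 1 times in the IgGL libraries and 0 times in each LepL library. The other 6 genes were counted 85 to 22008 times in the lung libraries. Their lung values are therefore levels of these genes in an organ with almost no nephrin RNA.

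**Figure D1:**
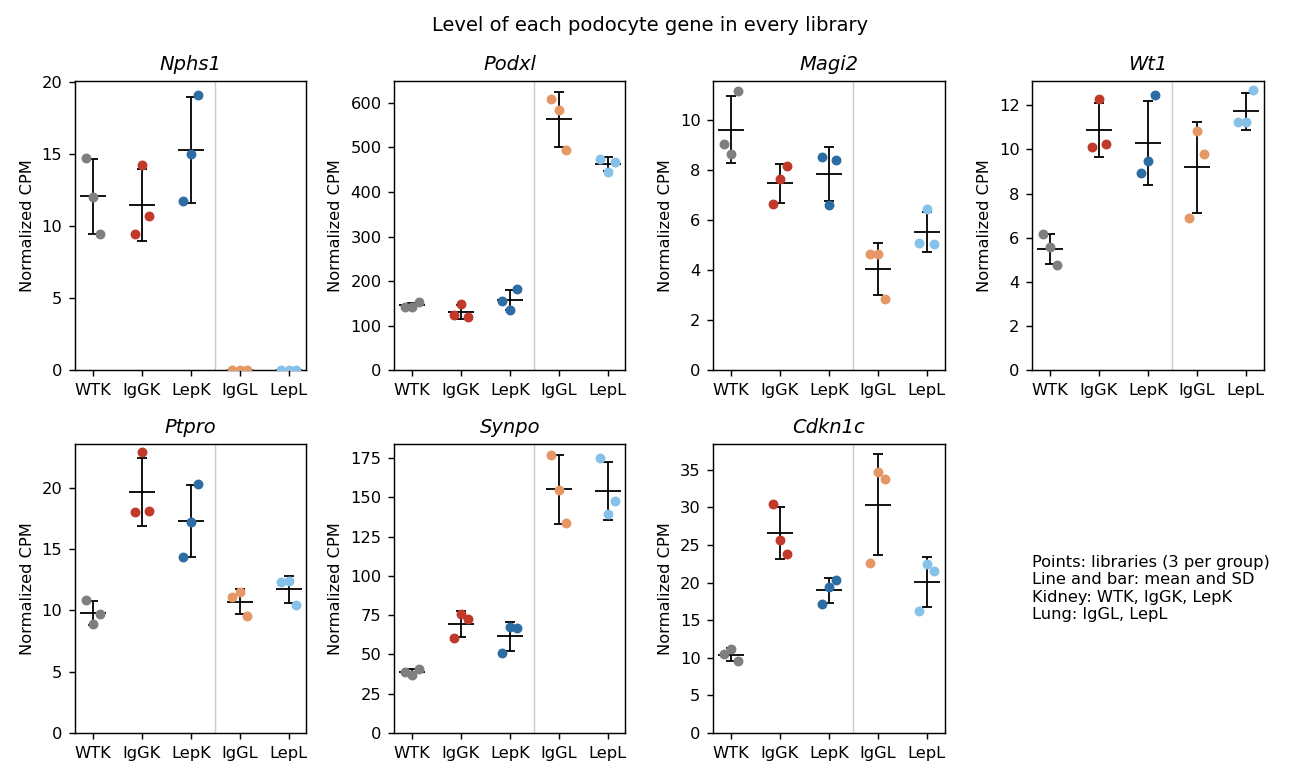
Normalized CPM (y axis, each panel from 0) of the 7 podocyte genes in the 5 groups (x axis); points are single libraries, the line and bar give mean and SD of 3 libraries, and a grey line parts kidney from lung, which were scaled apart. Wt1, Ptpro, Synpo and Cdkn1c lie higher in all IgGK and LepK libraries than in all WTK libraries, and Nphs1 lies at 0 or near 0 in lung.

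Promoter windows from RefSeq (build GRCm38.p6, 250 bases before to 50 after each annotated start) were at hand for Ptpro, Nphs1 and Magi2. They are shown because the 3 genes responded differently in the kidney, Ptpro passing the test after folic acid while Nphs1 and Magi2 did not. No window was at hand for Wt1, Podxl, Synpo or Cdkn1c. The windows below are the plus strand of chr6:137252049-137252348, chr7:30459808-30460107 and, for the more upstream of 2 Magi2 starts, chr5:19226796-19227095. Capitals mark matches to motifs of podocyte transcription factors.
Ptpro: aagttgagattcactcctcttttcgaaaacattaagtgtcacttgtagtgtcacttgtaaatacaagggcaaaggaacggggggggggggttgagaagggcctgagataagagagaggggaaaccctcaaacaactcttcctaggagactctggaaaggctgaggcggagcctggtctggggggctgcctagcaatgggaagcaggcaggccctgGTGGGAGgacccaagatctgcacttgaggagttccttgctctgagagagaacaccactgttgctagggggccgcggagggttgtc
Nphs1: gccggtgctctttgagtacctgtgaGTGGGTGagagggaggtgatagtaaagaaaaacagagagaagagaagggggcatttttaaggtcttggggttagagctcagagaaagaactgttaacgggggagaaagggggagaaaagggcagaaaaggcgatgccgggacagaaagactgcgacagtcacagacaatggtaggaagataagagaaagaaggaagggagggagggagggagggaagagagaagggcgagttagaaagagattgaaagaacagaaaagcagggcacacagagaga
Magi2: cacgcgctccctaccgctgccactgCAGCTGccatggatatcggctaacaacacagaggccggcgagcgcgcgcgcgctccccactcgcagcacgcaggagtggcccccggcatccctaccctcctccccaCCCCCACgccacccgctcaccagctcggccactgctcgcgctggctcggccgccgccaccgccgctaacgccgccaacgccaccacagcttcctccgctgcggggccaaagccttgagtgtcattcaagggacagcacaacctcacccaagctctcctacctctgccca

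Both strands were searched for a WT1-type zinc finger motif (GTGGGNG), an E-box (CAGCTG), a Maf half-site (TGCTGA) and a forkhead motif (GTAAACA). None of these letter strings overlaps another in the windows shown. The WT1-type motif was found 1 time in each window, starting at base -35 of Ptpro, -225 of Nphs1 and -119 of Magi2 relative to the start, on the minus strand in Magi2. The E-box was found 1 time in the Magi2 window, at -225, and the Maf and forkhead strings were not found. The second Magi2 window, chr5:19907268-19907567, held none of the 4 strings. Among all 32851 windows of that length, 31.6% held the WT1-type string, 16.3% the E-box, 19.5% the Maf half-site and 3.65% the forkhead motif. Both the gene that passed the test and those that did not held the WT1-type string. A match of letters is a description of the window and not a binding site.

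In the injured kidney, Cdkn1c, Ptpro, Wt1 and Synpo rose against vehicle while the other 3 podocyte genes did not pass the test. Comparing IgGK with WTK asks how these transcripts stand 28 days after folic acid. Cdkn1c RNA was 2.55-fold, Ptpro 2.01-fold, Wt1 1.98-fold and Synpo 1.79-fold higher in IgGK. Nephrin, podocalyxin and Magi2 transcripts were 0.953-fold, 0.898-fold and 0.778-fold of their WTK levels, without passing the test. A gene passed at an edgeR quasi-likelihood adjusted p (Benjamini-Hochberg) below 0.05 with a log2 fold change beyond 0.5 in size. Of the 7 genes, 4 passed as higher and 0 as lower in edgeR (1, Magi2, was lower at an unadjusted p below 0.05, and DESeq2 also called 0 lower), beside 21.7% higher and 15.6% lower of all 19593 genes tested in kidney. Since these are whole-kidney libraries, more or fewer podocytes and more or less RNA per podocyte cannot be told apart.

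Cdkn1c, the p57 cell cycle inhibitor (chr7:143012076-143014787, minus strand, build GRCm39), was measured at 10.5, 11.2 and 9.56 normalized CPM in WTK and at 30.4, 25.6 and 23.7 in IgGK. Every IgGK library was above every WTK library. The log2 fold change was 1.35 ± 0.12 (SE, n = 3 per group, edgeR adjusted p = 1.07e-06).

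Ptpro (chr6:137229317-137440231, plus strand) was measured at 10.8, 8.88 and 9.67 normalized CPM in WTK and at 18.0, 22.9 and 18.1 in IgGK. The lowest IgGK library stood well above the highest WTK library, and the log2 fold change was 1.01 ± 0.15 (SE, edgeR adjusted p = 7.58e-05). Wt1 (chr2:104956874-105003961, plus strand) was measured at 6.15, 5.57 and 4.76 normalized CPM in WTK and at 10.1, 12.3 and 10.3 in IgGK. Its groups did not overlap, with a log2 fold change of 0.99 ± 0.17 (SE, edgeR adjusted p = 0.00028). Wt1 was a low gene, resting on 132 to 148 reads per WTK library.

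Synpo (chr18:60727045-60793214, minus strand), the actin-binding protein of foot processes, was measured at 38.9, 36.6 and 40.5 normalized CPM in WTK and at 60.2, 75.7 and 72.4 in IgGK. The groups were again apart, and the log2 fold change was 0.84 ± 0.11 (SE, edgeR adjusted p = 3.8e-05). For all 4 genes the libraries of the groups did not overlap, as was true in the higher direction of 32.5% of all genes tested.

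Nphs1 (chr7:30157740-30186648, plus strand), the nephrin gene, was counted 354, 304 and 263 times in WTK (9.48 to 14.7 normalized CPM) and 287, 498 and 371 times in IgGK (9.46 to 14.2 normalized CPM). The groups overlapped nearly fully. The log2 fold change was -0.07 ± 0.21 (SE, edgeR adjusted p = 0.804), and 2 SE on either side ran from -0.48 to 0.35, so a change of the size seen for Ptpro lay outside that interval. Leaving out WTK replicate 1 or IgGK replicate 1 gave log2 fold changes of 0.10 and 0.05. Nphs1 shares its span with a ribosomal pseudogene on the other strand, Rps12-ps4, counted 21 to 98 times per kidney library, and the libraries did not keep strand. In lung, Rps12-ps4 was counted 68 to 149 times per library, where Nphs1 was counted 0 or 1 times. A part of the pseudogene in the Nphs1 counts was not tested.

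Podxl (chr6:31496423-31540916, minus strand) was measured at 143, 142 and 153 normalized CPM in WTK and at 124, 149 and 120 in IgGK. IgGK replicate 2 lay within the WTK range while the other libraries of that group were lower. The log2 fold change was -0.16 ± 0.11 (SE, edgeR adjusted p = 0.239). Magi2 (chr5:19432034-20909790, plus strand) was measured at 9.06, 8.65 and 11.1 normalized CPM in WTK and at 6.63, 7.66 and 8.15 in IgGK. All 3 IgGK libraries of Magi2 were below all 3 WTK libraries, which in this direction held for 30.1% of all genes tested. Its log2 fold change of -0.36 ± 0.16 (SE) had an edgeR adjusted p of 0.0742.

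**Figure D2:**
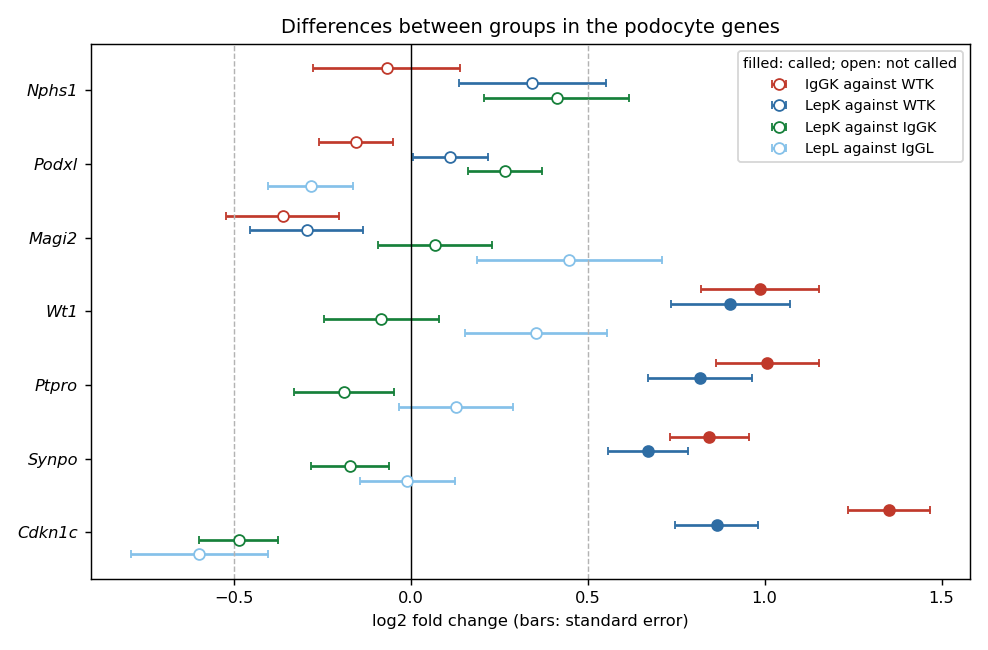
Log2 fold change (x axis, bars give the standard error, dashed lines at -0.5 and 0.5) of each podocyte gene (y axis) in 4 comparisons of 3 libraries per group. The filled points of Wt1, Ptpro, Synpo and Cdkn1c against WTK, which passed the test, lie between 0.67 and 1.35, and all other points are open.

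Scaling the libraries by total count alone, without TMM factors, moved every kidney comparison. It shifted the median log2 fold change of all genes in IgGK against WTK from 0.04 to 0.48, and the split of calls from 4253 higher and 3057 lower to 7803 higher and 1178 lower. The median of the 7 podocyte genes moved with it, from 0.84 to 1.29. Cdkn1c, Ptpro, Wt1 and Synpo passed as higher under all 15 alternative settings run at the same thresholds. Nphs1, Podxl and Magi2 changed sign under library-size scaling, to log2 fold changes of 0.38, 0.29 and 0.08, and lay below the all-gene median there as they did with TMM. None of these 3 passed in any of the 15 settings.

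**Figure D3:**
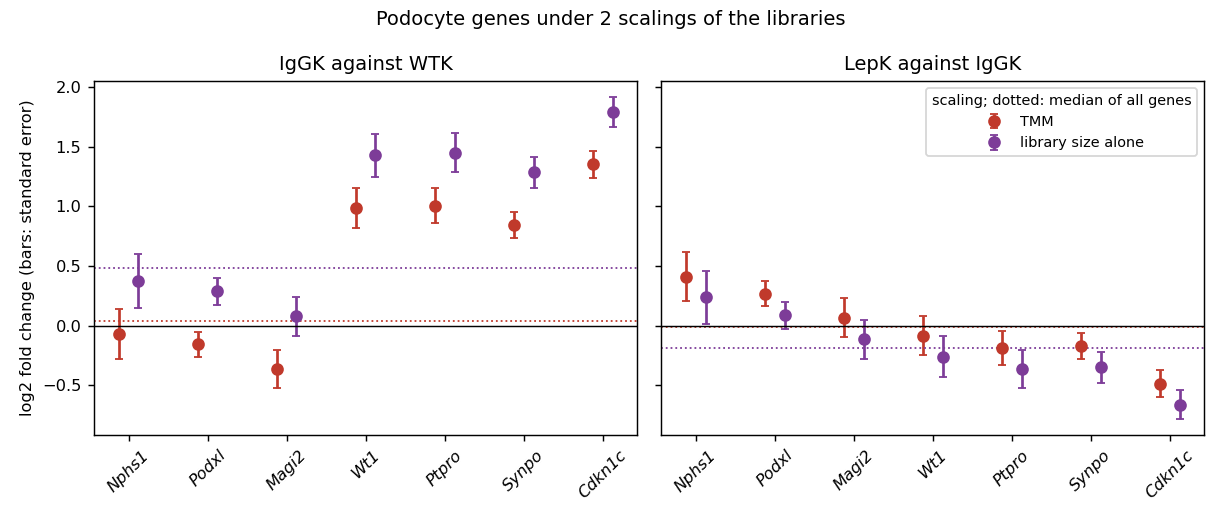
Log2 fold change (y axis, bars give the standard error) of the podocyte genes (x axis) under TMM scaling and under scaling by library size alone, with the median of all genes tested as a dotted line in the same colour. In IgGK against WTK the points of Nphs1, Podxl and Magi2 lie below the dotted line of their scaling and those of Wt1, Ptpro, Synpo and Cdkn1c above it.

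Ratios within a library do not depend on its scaling, and between IgGK and WTK they separated the same genes. Counts were divided by the Nphs1 count of the same library, a measure added after the values had been seen. The Wt1 to Nphs1 ratio was 0.418, 0.464 and 0.502 in WTK and 1.07, 0.861 and 0.957 in IgGK. Ptpro, Synpo and Cdkn1c behaved alike, with ranges of 0.737 to 1.02, 2.65 to 4.27 and 0.715 to 1.01 in WTK and of 1.61 to 1.90, 5.32 to 6.75 and 1.80 to 3.21 in IgGK. None of these ranges overlapped between WTK and IgGK. The ratio ranges of Podxl and Magi2 overlapped. With 3 libraries against 3, a two-sided exact permutation test cannot go below p = 0.1, the value reached by Wt1, Ptpro, Synpo and Cdkn1c, so these ratios are a description.

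**Figure D4:**
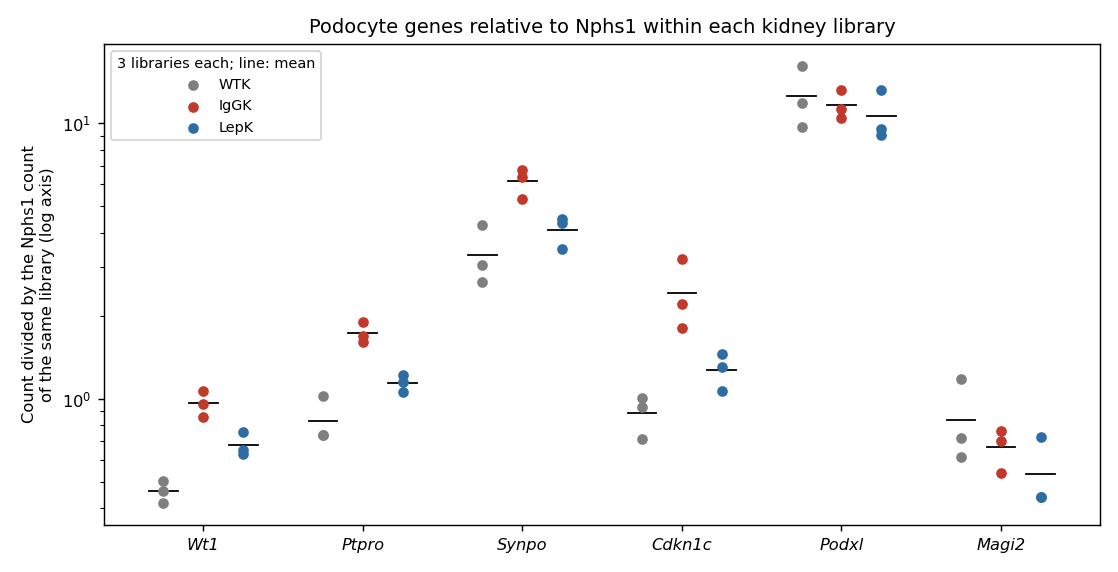
Count of each gene divided by the Nphs1 count of the same kidney library (y axis, log scale) for the other 6 podocyte genes (x axis); points are single libraries in 3 groups and lines are group means. Ratios of Wt1, Ptpro, Synpo and Cdkn1c lie higher in IgGK than in WTK and than in LepK with no overlap. Those of Podxl and Magi2 overlap between these groups. All ratios share the Nphs1 count, whose log2 fold change was 0.41 in LepK against IgGK without passing the test. In that comparison the levels of Wt1, Ptpro and Synpo themselves overlapped, so the ratios alone do not show that these genes fell with LepAb.

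RNA of other kidney cells changed in the same comparison, in which 21.7% of all genes tested were higher and 15.6% lower. All 7 fibroblast markers were higher in IgGK, with a summed level of 150 to 204 normalized CPM in WTK and 1332 to 1509 in IgGK, and all 7 macrophage markers were higher (165 to 184 against 768 to 984). All 5 injured tubule markers were higher (11.0 to 17.3 against 541 to 586), all 10 proximal tubule markers lower (50224 to 52312 against 12405 to 19288), and 1 of 6 distal nephron markers lower (4155 to 4168 against 2911 to 3418). Of 7 mesangial and pericyte markers, 3 were higher (summed 189 to 214 against 282 to 310). Of 7 mesothelial markers, 5 were higher and 1 lower (summed 170 to 171 against 151 to 190), and the mesothelial gene Msln stood at 1.37 to 2.09 normalized CPM in WTK and 4.23 to 6.79 in IgGK. Of 12 endothelial markers, 5 were lower (summed 630 to 730 against 508 to 543). No marker of these lists was at 0 in all libraries of a kidney group. The part of these cells in the values of Wt1, Cdkn1c, Synpo, Ptpro and Podxl was not tested.

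Levels of different genes can be compared per length, with the authors' FPKM values, which are scaled to gene length and library. Between groups these values moved as the TMM-scaled levels did, and not as scaling by total count alone would give. Mean Podxl was 22.0 FPKM in WTK and 19.2 in IgGK, where library-size scaling gave a log2 fold change of 0.29. In WTK, Podxl led with 22.0 ± 0.957 FPKM (SD, n = 3), followed by Cdkn1c at 4.22 ± 0.325 and Synpo at 3.36 ± 0.171. Nphs1 at 1.51 ± 0.322 and Ptpro at 1.20 ± 0.119 overlapped, as did Wt1 at 0.733 ± 0.0911 and Magi2 at 0.701 ± 0.0990. In IgGK the order began in the same way, with Podxl at 19.2 FPKM, Cdkn1c at 10.5 and Synpo at 5.87. Ptpro at 2.36 FPKM and Wt1 at 1.41 then stood before Nphs1 at 1.40, with Wt1 and Nphs1 overlapping, and Magi2 was last at 0.531. By group mean, nephrin transcripts thus stood in place 4 of 7 in WTK, in place 6 in IgGK and in place 5 in LepK. In LepK, Nphs1 at 1.89 FPKM overlapped both Ptpro at 2.11 and Wt1 at 1.36. Since Nphs1 overlapped a neighbour in each group, the libraries do not fix these places.

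None of the 7 podocyte genes passed the test for a change with LepAb after folic acid. LepK against IgGK asks what LepAb does to these transcripts in the injured kidney. Of the 7, 0 passed as higher and 0 as lower in edgeR (unadjusted p below 0.05 for 2, Podxl and Cdkn1c), beside 4.38% higher and 5.99% lower of all genes tested. DESeq2 likewise called 0 in each direction. The median log2 fold change of the 7 was -0.08, beside -0.01 for all genes.

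Cdkn1c came closest. It was measured at 17.1, 19.4 and 20.4 normalized CPM in LepK, below the 23.7 to 30.4 of the IgGK libraries and above the 9.56 to 11.2 of the WTK libraries. The log2 fold change against IgGK was -0.49 ± 0.11 (SE, edgeR adjusted p = 0.00943), which passed on p and missed the fold threshold of 0.5. It was called lower in 5 of 15 alternative settings, with library-size scaling (-0.66) and without IgGK replicate 2 or 3 or LepK replicate 2 or 3 (-0.50 to -0.56). Cdkn1c was the 1 podocyte gene whose LepK and IgGK libraries did not overlap. Among all genes, 19.5% did not overlap in this direction.

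Nphs1 was counted 358, 447 and 518 times in LepK (11.8 to 19.1 normalized CPM), overlapping IgGK, with a log2 fold change of 0.41 ± 0.21 (SE, edgeR adjusted p = 0.188). Podxl was measured at 155, 136 and 182, with LepK replicate 2 inside the IgGK range, and its log2 fold change was 0.27 ± 0.11 (SE, edgeR adjusted p = 0.0979). The interval of 2 SE ran from 0.00044 to 0.82 for Nphs1 and from 0.056 to 0.48 for Podxl on the log2 scale. For Nphs1 it only just cleared 0, and the unadjusted edgeR p was 0.0679, so a rise beyond error was not shown. Under library-size scaling the log2 fold changes were 0.24 ± 0.22 (SE) for Nphs1 and 0.09 ± 0.11 for Podxl. There 2 SE reached below 0 for both.

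Wt1 was measured at 8.92, 9.45 and 12.4 normalized CPM in LepK, Ptpro at 14.4, 17.2 and 20.3, Synpo at 51.0, 67.4 and 66.5, and Magi2 at 8.53, 6.60 and 8.42. Each of these 4 overlapped its IgGK values. Their log2 fold changes were -0.08, -0.19, -0.17 and 0.07, with SEs of 0.11 to 0.16 and edgeR adjusted p-values from 0.311 to 0.808. In the same comparison all 7 fibroblast markers fell (summed 447 to 759 normalized CPM in LepK), as did 6 of 7 macrophage markers (357 to 482) and all 5 injured tubule markers (230 to 326). Of the proximal tubule markers, 8 of 10 rose (26746 to 36068). No mesangial and pericyte marker passed (266 to 279), 3 of 6 distal nephron markers rose (4169 to 4576), 2 of 7 mesothelial markers fell (175 to 192) and 1 of 12 endothelial markers rose (595 to 655). Of all genes tested, 4.38% were higher and 5.99% lower.

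The same 4 genes that rose in IgGK were also higher in LepK than in WTK. LepK and IgGK are compared here with the same WTK libraries, so these are not independent results. Wt1 had a log2 fold change of 0.90 ± 0.17 (SE, edgeR adjusted p = 0.00113), Cdkn1c of 0.87 ± 0.12 (0.00013), Ptpro of 0.82 ± 0.15 (0.000876) and Synpo of 0.67 ± 0.11 (0.000566). For each of the 4, all LepK libraries were above all WTK libraries, as held for 25.6% of all genes, and for Magi2 all were below (24.6% of all genes). The 4 called higher of 7 stand beside 15.2% of all genes, and 0 were called lower beside 7.3%. Nphs1 (0.34 ± 0.21), Podxl (0.11 ± 0.11) and Magi2 (-0.29 ± 0.16) did not pass, with edgeR adjusted p-values from 0.171 to 0.442. Library-size scaling brought Nphs1 over the threshold, at 0.61 with an adjusted p of 0.0424, where the median of all genes was 0.29 and the calls were 4782 higher and 512 lower in place of 2984 and 1431. In LepK against IgGK the same scaling gave a median of -0.19 and 408 higher and 2185 lower calls in place of 858 and 1174.

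A wider list of 49 podocyte genes was set beside the 7, and many of its members are active in tubule, endothelium or stroma too. In IgGK against WTK, 20 of the 48 tested passed as higher and 7 as lower, again beside 21.7% and 15.6% of all genes. The median log2 fold change was 0.47 for the list and 0.04 for all genes.

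Slit diaphragm genes moved upward or did not pass. Of 9 tested, 6 rose in IgGK and 0 fell, beside 21.7% higher and 15.6% lower of all genes. Kirrel, which encodes the nephrin partner Neph1, was measured at 10.8, 11.2 and 11.6 normalized CPM in WTK, 43.9, 44.2 and 41.7 in IgGK and 22.7, 28.2 and 29.1 in LepK. The 3 kidney groups did not overlap, and its log2 fold change was 1.95 ± 0.10 (SE, edgeR adjusted p = 3.3e-08) in IgGK against WTK and -0.70 ± 0.09 (adjusted p = 0.000511) in LepK against IgGK. Its relative Kirrel3 rose from a mean of 0.522 to 6.17 normalized CPM (log2 fold change 3.54 ± 0.36), and the cadherin-like Fat1 from 71.9 to 161 (1.16 ± 0.07). Cd2ap, the adaptor that ties nephrin to actin, rose by 0.68 ± 0.06 on the log2 scale.

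Among foot process and actin genes, 5 of 14 rose and 3 fell in IgGK, beside 21.7% and 15.6% of all genes. The formin Inf2 (1.51 ± 0.13, log2 with SE), the GTPase regulator Srgap1 (1.64 ± 0.17), the intermediate filament gene Nes (1.29 ± 0.12), and the motor genes Myo1e (0.84 ± 0.09) and Myh9 (0.67 ± 0.07) rose. Arhgap24 (-0.73 ± 0.07), Rhpn1 (-0.70 ± 0.09) and Clic5 (-0.64 ± 0.09) fell, and all 3 lost the call under library-size scaling, at -0.29, -0.26 and -0.20. Among matrix and adhesion genes, Agrn (0.97 ± 0.08), Itga3 (0.95 ± 0.08) and Npnt (0.77 ± 0.07) rose. The basement membrane collagen genes Col4a3 (219 ± 23.8 to 146 ± 16.1 normalized CPM, mean ± SD) and Col4a4 (294 ± 21.4 to 199 ± 5.97) fell. Their log2 fold changes of -0.59 and -0.56 shrank to -0.15 and -0.12 under library-size scaling, below the threshold, and Col4a3 also lost its call without WTK replicate 2.

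Of 5 podocyte transcription factors beside Wt1, 2 rose in IgGK and the other 3 did not pass, where 21.7% of all genes were higher. Tcf21, a factor of glomerular and stromal development, was measured at 17.8 to 19.0 normalized CPM in WTK, 53.8 to 57.0 in IgGK and 33.3 to 46.9 in LepK, and rose by 1.60 ± 0.11 on the log2 scale in IgGK. Foxc2 rose by 0.57 ± 0.17 and lost the call without IgGK replicate 2 and in 1 fit of all 15 libraries. Lmx1b, a podocyte factor of the nail-patella syndrome, stayed low at 1.30 to 2.12 normalized CPM in WTK and 1.68 to 2.57 in IgGK, which overlapped (log2 fold change 0.50 ± 0.33, edgeR adjusted p = 0.23). Among signals and surface proteins, Vegfa (-1.03 ± 0.07) and Bmp7 (-1.07 ± 0.09) fell, while the phospholipase gene Plce1 (1.56 ± 0.19), Thsd7a (1.56 ± 0.15) and Pla2r1 (0.89 ± 0.17), the last 2 known as autoantigens of membranous nephropathy, and Efnb1 (0.61 ± 0.08) rose.

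**Figure D5:**
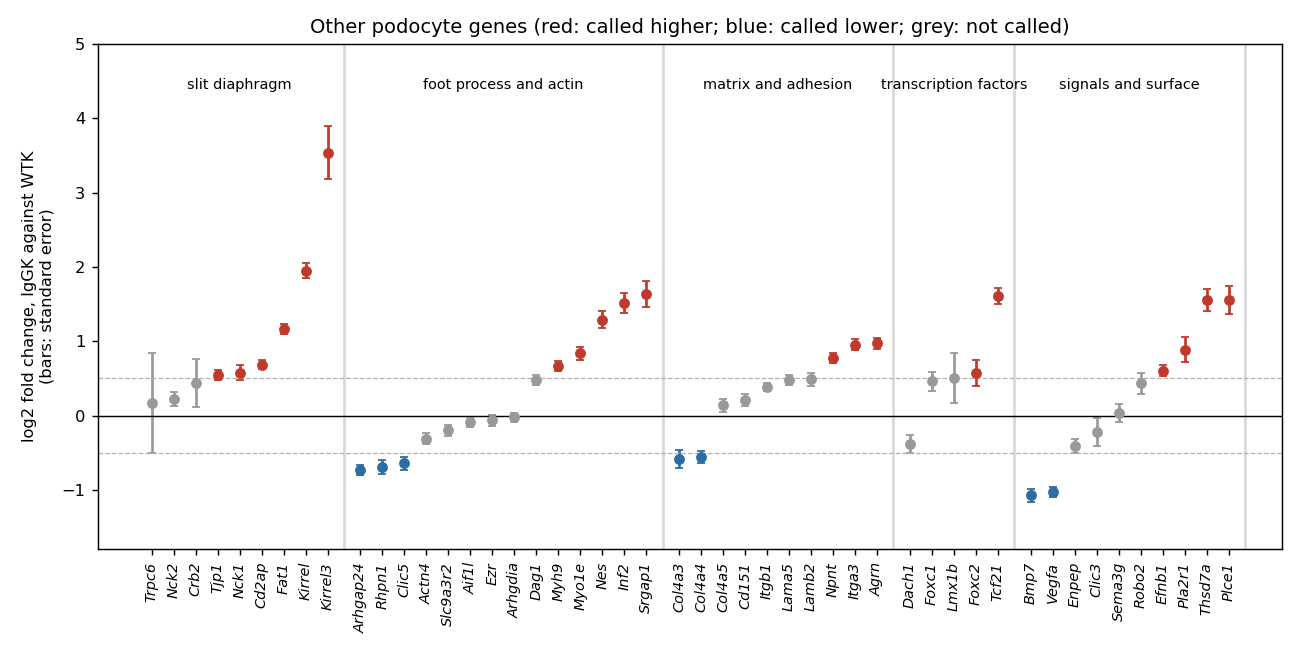
Log2 fold change of IgGK against WTK (y axis, bars give the standard error, dashed lines at -0.5 and 0.5) for the 48 genes of the wider podocyte list that were tested (x axis), in 5 groups by role. The 20 red points passed as higher, the 7 blue points as lower, and the 21 grey points did not pass.

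With LepAb, 3 genes of the wider list passed in kidney. In LepK against IgGK, Rhpn1 rose (19.8 to 23.5 normalized CPM in IgGK, 31.0 to 35.6 in LepK, log2 fold change 0.59) and Kirrel and Fat1 (-0.61 ± 0.07) fell. That is 1 of 48 higher and 2 of 48 lower, beside 4.38% and 5.99% of all genes, with a list median of -0.12 beside -0.01. Rhpn1 lost the call under library-size scaling (0.41). In LepK against WTK, 14 of 48 were higher and 2, Vegfa and Bmp7, were lower, beside 15.2% and 7.3% of all genes. Under library-size scaling Vegfa and Bmp7 stood at -0.28 and -0.34 and lost the call.

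None of the podocyte genes passed the test for a change with LepAb in the lung. Nphs1 was too low to test, and of the other 6, 0 passed as higher and 0 as lower in LepL against IgGL by edgeR (unadjusted p below 0.05 for 2, Podxl and Cdkn1c), beside 1.78% and 2.36% of the 19617 genes tested. DESeq2 called 1, Cdkn1c, as lower. Calls over all genes in lung varied widely with the fit, from 349 higher and 463 lower here to 1242 and 1108 in DESeq2, 1937 and 1602 without IgGL replicate 1, and at most 18 and 4 without any other single library. The median log2 fold change was 0.06, beside 0.00 for all genes.

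Cdkn1c was measured at 22.6, 34.7 and 33.8 normalized CPM in IgGL and at 16.2, 22.4 and 21.5 in LepL. All LepL libraries were below all IgGL libraries, though IgGL replicate 1 lay close to them. The log2 fold change was -0.60 ± 0.19 (SE, edgeR adjusted p = 0.0936), and without IgGL replicate 1 it was -0.77 and passed, in a fit that called many more genes overall. Podxl was measured at 610, 585 and 494 in IgGL and at 475, 445 and 467 in LepL, also without overlap (log2 fold change -0.28 ± 0.12, edgeR adjusted p = 0.168). Wt1 was measured at 6.90, 10.8 and 9.81 in IgGL and at 11.2, 11.2 and 12.7 in LepL, with the LepL libraries higher (0.35 ± 0.20, adjusted p = 0.289).

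Magi2 was measured at 4.65, 4.64 and 2.83 normalized CPM in IgGL and at 5.09, 6.43 and 5.04 in LepL, the latter higher throughout (0.45 ± 0.26, edgeR adjusted p = 0.305). Ptpro (9.58 to 11.5 against 10.5 to 12.4) and Synpo (134 to 177 against 139 to 175) overlapped, with log2 fold changes of 0.13 and -0.01. Of the 6 genes, 2 were higher and 2 lower without overlap, and of all genes 16% and 17.3% were. Beside Wt1, 4 of 7 mesothelial markers were higher in LepL (summed 803 to 1052 in IgGL, 981 to 1102 in LepL), and beside Podxl, 0 of 12 endothelial markers passed (2934 to 3476 against 2868 to 3372). Of the other lists, 4 of 7 fibroblast, 3 of 7 mesangial and pericyte and 2 of 7 macrophage markers were lower, and 3 of 8 lung epithelial markers were higher. All genes tested gave 1.78% higher and 2.36% lower. The part of these cells in the lung values of the podocyte genes was not tested.

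Of 47 genes of the wider list tested in lung, Enpep passed as higher and Inf2, Arhgap24 and Kirrel as lower, 1 and 3 genes beside 1.78% and 2.36% of all genes. Kirrel was measured at 70.5 to 90.3 normalized CPM in IgGL and 46.6 to 56.1 in LepL (log2 fold change -0.68 ± 0.13, edgeR adjusted p = 0.0354). All 4 calls were lost without IgGL replicate 2, without IgGL replicate 3 and without any single LepL library.

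Levels in the injured kidney and the injured lung differed most for Nphs1. Over 3 libraries, Nphs1 was counted 1156 times in IgGK and 1 time in IgGL, a ratio of 1383 after scaling, with an exact 95% interval of 248 to 54662 that covers counting error only. Between LepK (1323 counts) and LepL (0 counts) it was at least 530-fold higher in kidney, at a floor of 3 counts over the lung group.

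The other podocyte genes were compared between IgGK and IgGL in a fit of the 12 libraries from injured organs, on a common scale. Magi2 (log2 difference 1.13 ± 0.22, edgeR adjusted p = 0.000619) and Ptpro (1.12 ± 0.15, adjusted p = 2.47e-05) were higher in kidney. Podxl (-1.86 ± 0.13, adjusted p = 2.1e-08) and Synpo (-0.91 ± 0.14, adjusted p = 5.64e-05) were lower in kidney than in lung. Wt1 (0.49 ± 0.19, adjusted p = 0.0367) lay just under the fold threshold and passed it without IgGL replicate 2, at 0.63. Cdkn1c differed by 0.05 ± 0.17 (adjusted p = 0.806). Nphs1 was called higher in kidney too, but it entered this fit through its kidney counts alone, so its call is no test. Of the other 6 genes, Magi2 and Ptpro thus passed as higher and Podxl and Synpo as lower. The 21488 genes tested gave 26.3% higher and 24.2% lower. Summed endothelial markers were 2934 to 3476 normalized CPM in IgGL, and 11 of the 12 were lower in IgGK, and 6 of 7 mesothelial markers were lower in IgGK as well. Their part in the organ difference of Podxl and Wt1 was not tested.

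On the authors' FPKM scale, Podxl led in lung too, at 70.3 ± 8.64 in IgGL and 59.1 ± 2.14 in LepL. Synpo (11.2 and 11.3 FPKM) and Cdkn1c (10.2 and 6.88) followed, and overlapped in IgGL but not in LepL. Ptpro (1.09 and 1.22) and Wt1 (1.01 and 1.33) overlapped in both groups, and Magi2 (0.244 and 0.341) and Nphs1 came last.

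The antibody effect in kidney was then set against that in lung, as a difference of log2 fold changes. Nphs1, counted 1 time in IgGL and 0 times in LepL, had too few lung reads to bear on this (2.20 ± 1.51, SE). Of the other 6 podocyte genes, 0 differed in either direction by edgeR (unadjusted p below 0.05 for 1, Podxl), beside 3.18% higher and 3.49% lower of all genes, while DESeq2 called 1. That gene was Podxl, with a difference of 0.58 ± 0.17 (SE, edgeR adjusted p = 0.0577), its log2 fold change being 0.27 in kidney and -0.28 in lung. It passed in 5 of 20 alternative settings at the same thresholds. Cdkn1c, which was lower with LepAb without overlap in both organs, differed by 0.14 ± 0.24 (edgeR adjusted p = 0.772), and the interval of 2 SE ran from -0.35 to 0.63.

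Over the 9 kidney libraries, the genes whose pattern was most like each podocyte gene were found by the root mean square difference of centred log2 levels among 15603 genes of at least 1 CPM on average. Wt1 and Ptpro were close to each other, Ptpro being in place 3 for Wt1 and Wt1 in place 4 for Ptpro (difference 0.10). The decoy receptor gene Tnfrsf23 was nearest to both (0.06 and 0.08). Nr1i2 was also near Wt1, and Denn2b and Clec2d were near Ptpro. For Synpo the nearest were St14, 1700017B05Rik and Fmnl3. For Cdkn1c they were Ifit2, Frk and Xaf1, of which Ifit2 and Xaf1 are known as interferon-induced genes.

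The nearest to Nphs1 were Snhg20, Cdkn2d and Psmg3, to Podxl Map9, 1700030K09Rik and Astn2, and to Magi2 Ndufb1, Slc35a2 and Taf9b. The differences were 0.16 to 0.18 for Nphs1 and 0.07 to 0.11 for the nearest of Podxl, Synpo, Magi2 and Cdkn1c. Of the other 6 podocyte genes, Podxl stood nearest to Nphs1 (place 133, 0.25), behind Clic3, Sema3g and Aif1l of the wider list (places 28, 35 and 131). With 9 libraries in 3 groups in which many genes moved together many genes share such patterns by group, and the places describe likeness of values over these libraries alone.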

How the data were processed

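Whole-organ RNA was sequenced by the study after poly(A) enrichment, in 15 libraries that do not keep strand. The authors deposited 1 table with raw read counts per gene and library, without normalization, and FPKM values. The FPKM values are scaled to gene length and library, and between groups they did not follow total counts alone. The aligner and the counting tool are not given in the sources used here. The submitters' processing notes name GRCm39 and DESeq2. The table's group means and its log2 fold changes with p-values and adjusted p-values, made by the authors, were not used. Libraries were grouped by title, tissue and treatment labels. A line of the sample descriptions giving a column name contradicts them and was ignored.

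Counts were analysed in R 4.3.3 with edgeR 4.0.16 (TMM, filterByExpr with a minimum count of 10 and a total of 15, glmQLFit and glmQLFTest), in separate fits of 9 kidney libraries (6 residual degrees of freedom), 6 lung libraries (4) and the 12 libraries of injured organs (8). P-values were adjusted by Benjamini-Hochberg over all genes tested, and calls used the thresholds of the study's methods, 0.5 on the log2 scale and 0.05. The FPKM values served only for the order of genes within a group. Between replicates of a group the counts differed by a chi-square of at least 6.73 per gene, well over sampling noise. In kidney, 1 count in the shallowest library is under the level of any member named. The procedure was tested on simulated data. As alternatives, DESeq2 1.42.0 was run, and edgeR with RLE factors, library size alone, upper-quartile factors, no low-count filter, other fold thresholds, all 15 libraries in 1 fit, the replicate block and leaving out each library.

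The genes, the wider list, the marker lists (endothelial, mesangial and pericyte, mesothelial, fibroblast, proximal tubule, distal nephron, injured tubule, macrophage, lung epithelium) and the tests were chosen with earlier results of these data known. Named in the text were all 7 members, genes of the wider list called within an organ, Kirrel (Kirrel1 in the list), Col4a3, Col4a4 and Lmx1b in any case, up to 3 markers of a list, and the 3 genes nearest in pattern to each member (pseudocount 0.5). Some genes are not reported here, and the wider list and its counts leave them out. Ratios to Nphs1 and the promoter motifs were added after the values had been seen.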

Additional observations from a re-analysis of the deposited data

Results flagged for a closer look

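The effect of LepAb differed between kidney and lung, by the edgeR test of the difference itself, for 4 of 48 genes of the wider podocyte list, 3 higher and 1 lower, beside 3.18% and 3.49% of all genes. The list thus had about as many calls as its size gives at the share of all genes. Arhgap24 had a difference of log2 fold changes of 1.17 ± 0.18 (SE, adjusted p = 0.007), from 0.38 in kidney and -0.76 in lung, and passed in all 20 alternatives run at the same thresholds. Fat1 differed by -0.72 ± 0.16 (adjusted p = 0.0244), from -0.61 in kidney and 0.14 in lung, and passed in 15 of 20. Bmp7 differed by 1.34 ± 0.34 (adjusted p = 0.0341) at a low lung level of 1.73 to 6.35 normalized CPM, and passed in 9 of 20, not with the replicate block. Foxc1 differed by 0.93 ± 0.22 (adjusted p = 0.028) and passed in 11 of 20, not under library-size scaling. Organ, injury agent and day differ together in this contrast and cannot be told apart.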

How the results depend on the processing

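The count of podocyte genes higher than in WTK was 4 for IgGK as for LepK. For IgGK it was 4 under every alternative except a log2 threshold of 1, where it was 2. For LepK it was 0 at that threshold, and library-size scaling added Nphs1 (0.61, edgeR adjusted p = 0.0424) to the 4. Every other alternative gave 4 for LepK too. With that threshold the wider list gave 9 higher and 2 lower for IgGK against WTK, 0 and 0 for LepK against IgGK, 8 and 0 in LepK against WTK and 0 and 0 in lung, and 1 podocyte gene was lower in IgGK than in IgGL. Without a fold threshold, 1 podocyte gene (Cdkn1c) was lower in LepK than in IgGK, and the wider list gave 11 lower for IgGK against WTK, 5 higher and 10 lower in LepK against IgGK and 22 higher and 9 lower in LepK against WTK. Library-size scaling gave 31 higher and 2 lower, 0 higher and 9 lower, and 26 higher and 0 lower in these kidney comparisons, 1 podocyte gene lower in LepK against IgGK and 0 list genes higher in lung. It also reversed Nphs1 (0.38), Podxl (0.29) and Magi2 (0.078) for IgGK against WTK, Magi2 (-0.11) for LepK against IgGK, Synpo in lung (0.027) and Cdkn1c in kidney minus lung (-0.11, all gene split 218 higher and 1856 lower in place of 683 and 749). Upper-quartile factors gave 1 list gene lower in LepK against WTK and reversed Synpo in lung (0.032), as did no low-count filter (0.0034). For kidney minus lung the upper-quartile split was 492 higher and 868 lower.

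DESeq2, no low-count filter and 1 fit of all 15 libraries each called 1 podocyte gene lower in lung (Cdkn1c) and 1 higher in kidney minus lung (Podxl). For the wider list in lung DESeq2 gave 3 higher and 7 lower, no filter 5 higher and 5 lower, and the joint fit 6 higher and 8 lower. DESeq2 and the joint fit each gave 2 higher in LepK against IgGK. Leaving out 1 library gave 0 to 1 podocyte genes lower in lung and in LepK against IgGK, 0 to 1 higher in kidney minus lung and 3 to 4 higher (Nphs1 included) in IgGK against IgGL. For the wider list it gave 1 to 4 higher and 2 to 5 lower in LepK against IgGK, 2 to 4 lower in LepK against WTK, and 0 to 6 higher and 0 to 8 lower in lung. Signs changed in these runs for Nphs1 for IgGK against WTK (-0.25 to 0.10), Wt1 in LepK against IgGK (-0.24 to 0.016), Podxl in LepK against WTK (-0.0035 to 0.21), Synpo in lung (-0.11 to 0.10) and Cdkn1c in IgGK against IgGL (-0.12 to 0.16). Where 1 library was left out, smaller groups enter the test, and otherwise the cause of a change was not tested.

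Deviations of replicates that share a number had correlations of -0.06 to 0.18 in 12 pairs, and those between other numbers of -0.19 to 0.11. The highest were between IgGK and LepK, at replicate 1 (0.18) and replicate 2 (0.17), while replicate 3 gave -0.03. The correlations were small, and whether the numbers pair IgGK with LepK libraries is not settled by them. With the replicate block the wider list in lung gave 0 higher and 0 lower, and Wt1 passed in IgGK against IgGL (0.50). No other call of a podocyte gene changed with the block.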
